A study of Mus musculus with 24 samples.

Results

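Parvalbumin (Pvalb), calbindin (Calb1) and calretinin (Calb2) are cytosolic proteins of the EF-hand family that bind calcium, and 3 of the 33902 gene symbols in the single-nucleus RNA sequencing (snRNA-seq) table carry these names. They were taken by name, in every cell type and in both mouse strains. EF-hand proteins hold calcium in a helix-loop-helix fold. Buffers such as these 3 bind the calcium that enters a neuron and shape how high and how long the signal lasts, whereas sensors such as calmodulin pass it on to other proteins. In the hippocampus the 3 buffers are the classical labels of neuronal classes: parvalbumin for fast-spiking basket and axo-axonic interneurons, calbindin for dentate granule cells and part of the CA1 pyramidal cells, and calretinin for subsets of interneurons, for mossy cells and for Cajal-Retzius cells.

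Adult males of 2 inbred mouse strains, C57BL/6J (B6) and DBA/2J (D2), gave the nuclei of their ventral hippocampus at 10 to 16 weeks of age, with no treatment and no transgene named in the labels. Each strain had 2 snRNA-seq libraries and 2 single-nucleus ATAC (snATAC-seq) libraries, which measure open chromatin, and each library combined tissue of about 2 animals. The snRNA-seq nuclei were sorted on NeuN, a protein of neuronal nuclei, so that neurons were enriched, and the snATAC-seq nuclei were not sorted on NeuN. The authors added up the raw counts of all nuclei that a library holds of a given cell type.

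The snRNA-seq table held 30880 nuclei in 17 cell types, with 45 to 1489 nuclei and 139713 to 11352265 counts for a cell type in a library. Levels are given as CPM, the count of a gene divided by that total and scaled to the same sum in every column. The authors made the clusters from these same transcripts, so levels across cell types are a description with no test. The labelled cell types were checked by markers. The interneurons of the medial and caudal ganglionic eminences (Inh-MGE and Inh-CGE) had the highest summed MGE and CGE markers of the 17 cell types. The Cajal-Retzius cluster (CR-CR) had the highest Cajal-Retzius markers in the mean of its libraries, at 5959 and 6645 CPM in B6 and 1638 and 4008 CPM in D2. That cluster stood apart in D2, with 45 and 46 nuclei against 138 and 171 in B6, and it also led the dentate granule list through Prox1, so its values are given with this limit.

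Calb1 was highest in the granule cells of the dentate gyrus (Exc-DG). It read 118 and 111 CPM in the B6 libraries and 115 and 120 CPM in the D2 libraries. The mean was 116 ± 3.86 CPM (SD, n = 4 libraries), so the libraries lay close together and the strains overlapped. Exc-DG held 16.5% of the nuclei and 51.6% of all Calb1 counts. Inh-MGE came next at 78.4 ± 7.51 CPM, from 70.5 to 87.7 CPM, and the pyramidal cells Exc-CA1-Galntl6 followed at 52.4 ± 8.80 CPM, from 41.7 to 62.0 CPM. The ranges of these 3 cell types did not overlap.

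Below them Calb1 fell off without clear steps. Inh-CGE stood at 39.3 ± 13.1 CPM, Exc-Cdh12 at 27.8 ± 10.7 CPM, Exc-CA1-Camk2d at 26.9 ± 6.97 CPM, CR-CR at 23.7 ± 14.1 CPM, the Lamp5 interneurons (Inh-Lamp5) at 19.0 ± 2.39 CPM and Exc-CA1-Fras1 at 18.6 ± 0.435 CPM. Each neighbour in this order overlapped the next, from Exc-CA1-Galntl6 down to Exc-CA1-Fras1. The 3 CA1 clusters thus differed among themselves, with Exc-CA1-Galntl6 above both others in every library. The lowest levels were in excitatory neurons: 5.49 ± 0.91 CPM in Exc-Gpc6, 3.22 ± 1.18 CPM in Exc-ENT and 2.71 ± 0.58 CPM in the CA3 pyramidal cells (Exc-CA3). The 5 non-neuronal clusters lay at 7.38 to 12.2 CPM, above those 3 neuronal types. Counted per nucleus, where non-neuronal nuclei hold fewer transcripts, they lay at 2.38 to 2.77 Calb1 counts per 100 nuclei, against 2.73 in Exc-ENT, 2.90 in Exc-CA3, 3.795 in Exc-Gpc6 and 88.0 in Exc-DG, so Exc-ENT lay within the non-neuronal range. Free RNA in droplets gives such low counts in cells that do not express a gene, and its share in these values was not tested.

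Calb2 was highest in CR-CR, at 41.7 and 43.5 CPM in B6 and 50.1 and 80.1 CPM in D2 (53.8 ± 17.9 CPM, SD, n = 4 libraries). These values rest on 20, 21, 7 and 13 counts. Pooled over the libraries the level was 48.2 CPM with an exact Poisson interval of 36.9 to 62.0 CPM at 95%, which covers counting error only. Inh-CGE followed at 25.9 and 30.0 CPM in B6 and 25.3 and 34.9 CPM in D2 (29.0 ± 4.43 CPM), below CR-CR in all 4 libraries. The order of these 2 cell types turned with the scale, since Inh-CGE had 23.4 ± 5.18 Calb2 counts per 100 nuclei and CR-CR 17.7 ± 7.27. Exc-CA3 came after them, at 9.2 and 11.9 CPM in B6 and 9.3 and 7.7 CPM in D2, and did not overlap Inh-CGE.

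The remaining Calb2 levels were 8.27 ± 2.41 CPM in the oligodendrocyte precursors (NN-OPC), 7.48 ± 4.01 CPM in Exc-Cdh12 and at most 3.96 CPM in the other 12 cell types. Exc-CA3 overlapped NN-OPC, and NN-OPC overlapped Exc-Cdh12. Inh-CGE and Exc-CA3 held 30.7% and 30.3% of all Calb2 counts, and CR-CR, with 1.30% of the nuclei, held 8.36%. Exc-DG, the cell type with the most Calb1, had 0.53 ± 0.19 CPM of Calb2, from 21 counts over 5101 nuclei. The mossy cell markers Drd2 and Csf2rb2 summed to 10.0 CPM in Exc-CA3, and the deposited labels hold no mossy cell cluster. Their sums in the other cell types are not given, and the part of mossy cells in the Calb2 of Exc-CA3 was not tested.

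Pvalb marked 1 cell type. Inh-MGE read 21.2 and 22.7 CPM in B6 and 27.2 and 19.6 CPM in D2, from 75, 91, 111 and 56 counts (22.7 ± 3.28 CPM, SD, n = 4 libraries). It held 64.4% of all Pvalb counts in 5.30% of the nuclei and was the highest cell type in each library. No other cell type overlapped its range. The vascular and leptomeningeal cluster (NN-VLMC) was the next at 6.12 ± 5.17 CPM, which is 8 counts, with an exact 95% Poisson interval of 2.14 to 9.79 CPM around the pooled level of 4.97 CPM. The other 15 cell types lay between 0.49 and 2.05 CPM. Excitatory neurons, which should lack Pvalb, had 0.605 counts per 100 nuclei and non-neuronal cells 0.580, while the interneurons outside Inh-MGE had 1.29 in Inh-CGE and 1.20 in Inh-Lamp5. The share of free RNA in these low counts was not tested. In the 2 D2 libraries of the microglia (NN-MGC) no Pvalb count was found, where 3 counts would be 6.83 and 5.06 CPM.

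**Figure D1:**
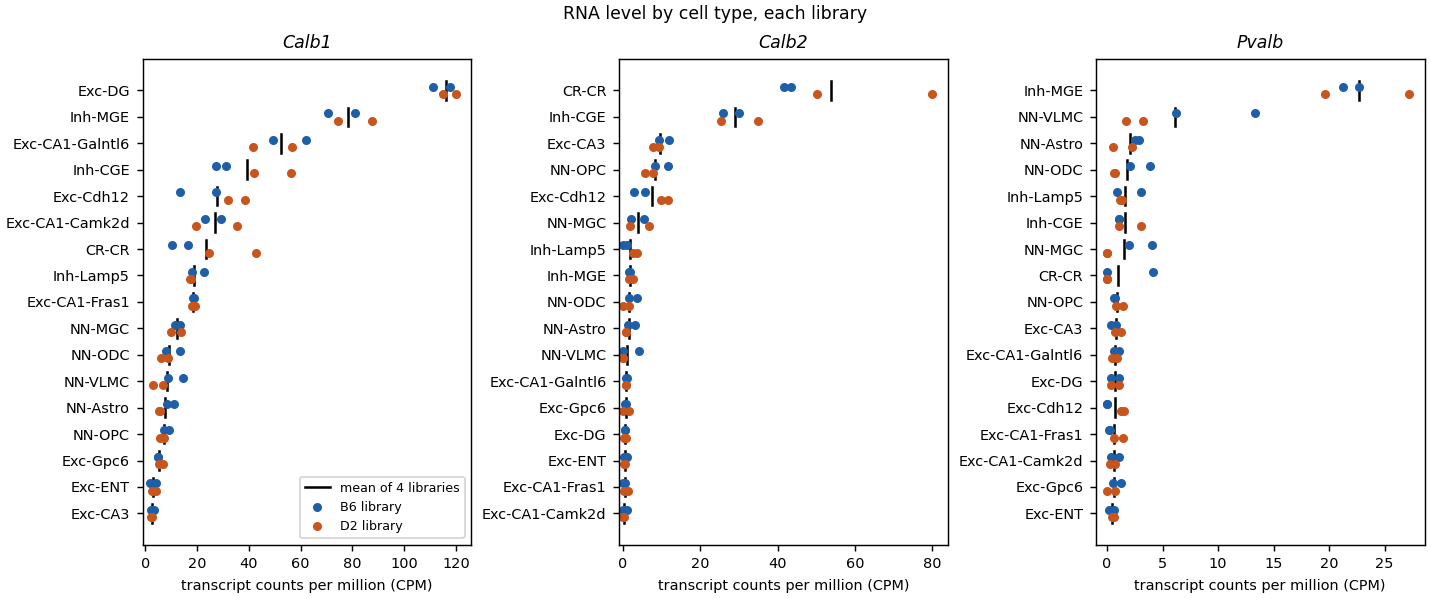
RNA level of Calb1, Calb2 and Pvalb in CPM (horizontal axes, linear) in 17 cell types, with 1 point for each library (B6 blue, D2 orange) and a line at the mean of the 4 libraries. Calb1 declines from 116 CPM in Exc-DG over many cell types, Calb2 is highest in CR-CR and Inh-CGE, and for Pvalb the 4 Inh-MGE libraries, from 19.6 to 27.2 CPM, stand clear of every other cell type.

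The 3 genes had little of their pattern in common. Over the means of the 17 cell types, on the scale log2(CPM + 1), the Pearson correlation was 0.261 between Pvalb and Calb1, -0.053 between Pvalb and Calb2 and 0.000 between Calb1 and Calb2. The cell types share libraries and differ in depth, so these are descriptions without a test. Among 15062 symbols with at least 10 CPM in a cell type and counts in both strains, the 5 most like Pvalb were Corin (0.920), Rbp4 (0.912), Sst (0.893), Crhbp (0.880) and Gna14 (0.835), all highest in Inh-MGE. Sst encodes somatostatin, the peptide of the other large class of MGE interneurons, and Inh-MGE holds both classes in 1 set of counts. Within it, fewer parvalbumin cells and less Pvalb RNA in each of them cannot be told apart. The 5 most like Calb1 were Cntnap5a (0.783), Lrpap1 (0.716), Pcdh8 (0.713), Nrip2 (0.712) and Trpc6 (0.706). Of these, Nrip2 and the channel gene Trpc6 had the same leading pair of cell types as Calb1, Exc-DG and then Inh-MGE, with Trpc6 at 485 and 264 CPM. The 5 most like Calb2 were Syndig1l (0.815), Gm36992 (0.749), Depdc1a (0.746), D130017N08Rik (0.746) and Cenpm (0.741), all highest in CR-CR, where the counts are fewest.

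The comparison of the strains asked in which cell types the transcripts differ between D2 and B6. Each cell type was fitted on its own across all symbols by edgeR's quasi-likelihood test, with p-values adjusted by the Benjamini-Hochberg method over all symbols that passed the filter on low counts. Of the 51 pairs of a gene and a cell type, 20 passed the filter: 14 for Calb1, 4 for Calb2 and 2 for Pvalb. Of the 20, 1 was called at an adjusted p under 0.05. Of all tests in the same 15 cell types 23.2% were called, from 4.26% in CR-CR to 36.0% in Exc-DG. That share includes symbols counted in 1 strain only, as 24691 of the 33902 symbols, the 3 genes among them, had counts in both strains. Among symbols with counts in both strains, 2.20% were called in CR-CR, 11.8% in Inh-MGE and 25.6% in Exc-DG. At an unadjusted p under 0.05 there were 2 of the 20. Among all symbols there were 7819 of 17723 in Exc-DG, 3277 of 12700 in Inh-CGE and 1092 of 6661 in CR-CR. The CPM of the strains did not overlap in 7 of the 20, with D2 above in 4 and below in 3, against 58.8% of all tests in those cell types. DESeq2, run on all 51, called 0, with 1 at an unadjusted p under 0.05. It also called fewer of all symbols: 1.60% in CR-CR, 6.96% in Inh-CGE, 11.4% in Inh-MGE and 20.1% in Exc-DG. In CR-CR it gave an adjusted p to 11082 symbols, of 20726 with at least 1 count. Pairs with few counts may therefore have had no adjusted p. The p-values of both methods measure only the spread between the 2 libraries of a strain, which the tables number 2 and 3.

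The called difference was Calb1 in Inh-CGE. The B6 libraries read 31.2 and 27.3 CPM (58 and 51 counts) and the D2 libraries 42.2 and 56.4 CPM (95 and 102 counts). Both D2 libraries were above both B6 libraries, also per 100 nuclei, at 34.8 and 48.6 against 21.8 and 22.6 counts. Calb1 rose by 0.72 on the log2 scale in D2 (SE 0.20, adjusted p = 0.0183, edgeR). In Inh-CGE 15.1% of 12700 symbols were called, and 9.06% were called higher in D2. Among symbols with counts in both strains these shares were 8.13% and 3.23%, so more symbols were then called lower than higher. The call did not hold with DESeq2 (adjusted p = 0.304), and it was lost when B6 library 3 (adjusted p = 0.0881), D2 library 2 (0.237) or D2 library 3 (0.325) was left out, while the direction was the same in each. Without either D2 library 0 symbols of Inh-CGE were called by edgeR, with 2375 and 2049 at an unadjusted p under 0.05, so those losses are not particular to Calb1.

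Other markers of Inh-CGE also differed between the strains in edgeR. Cck, the gene of the peptide cholecystokinin, rose by 1.32 on the log2 scale (SE 0.21, adjusted p = 0.000104), from 217 and 336 CPM in B6 to 492 and 910 CPM in D2. Prox1, a transcription factor, fell by 0.56 (adjusted p = 0.0153). Vip, the gene of another interneuron peptide, was at a log2 difference of 0.19 (adjusted p = 0.608), Adarb2 at -0.02 and the serotonin receptor gene Htr3a at -0.08. The summed MGE markers in Inh-CGE were 145 to 195 CPM in B6 and 215 to 231 CPM in D2. They came mostly from Kcnc1, a potassium channel gene that rose by 0.50 (adjusted p = 0.0185). Lhx6, another of the list, was at 0.406 CPM, given without a split by strain. Sst and Sox6, also on the MGE list, are not given singly for Inh-CGE, so a rise of each marker is not shown. The part of these marker differences in that of Calb1 was not tested. Calb2 in the same cells was at a log2 difference of 0.08 (SE 0.23, adjusted p = 0.885).

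**Figure D2:**
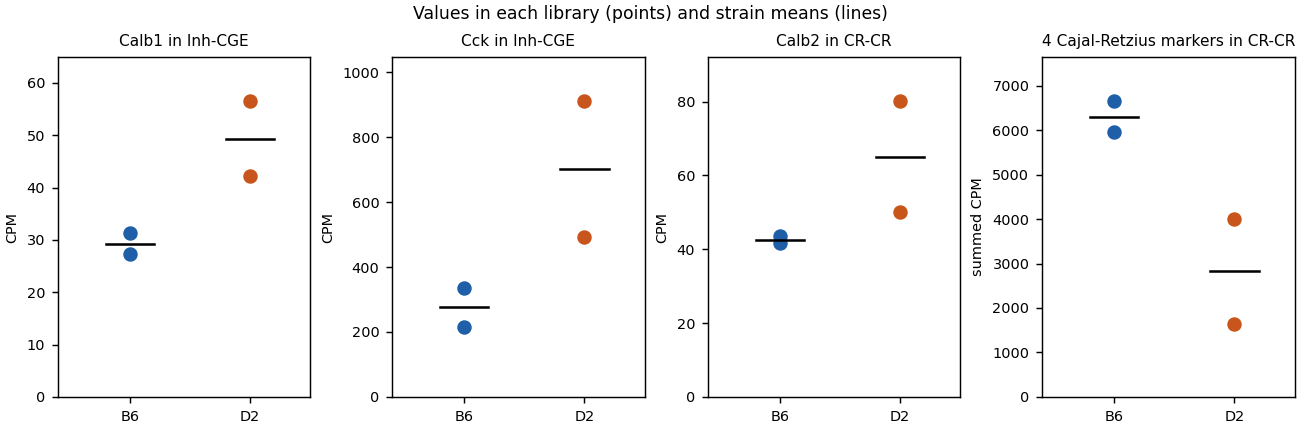
Values of Calb1 and of Cck in Inh-CGE, of Calb2 in CR-CR and of 4 summed Cajal-Retzius markers in CR-CR, in CPM on vertical axes that start at 0, with 1 point for each of the 2 libraries of a strain and a line at the strain mean. Both D2 libraries lie above both B6 libraries for Calb1 (42.2 and 56.4 against 31.2 and 27.3 CPM), for Cck and for Calb2, and below them for the Cajal-Retzius markers.

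In the cell types where each gene was highest, the strains were not told apart. Calb1 in Exc-DG had a log2 difference of 0.02 (SE 0.08, adjusted p = 0.899, edgeR). In that cell type 36.0% of the symbols tested were called, and 25.6% of those with counts in both strains. Calb1 in Inh-MGE had a log2 difference of 0.05 (SE 0.13, adjusted p = 0.819). Pvalb in Inh-MGE stood at 0.08 (SE 0.20, adjusted p = 0.823). There 21.0% of symbols were called, and 11.8% of those with counts in both strains. In the same nuclei Sst read 617 and 1513 CPM in the B6 libraries and 1159 and 2107 CPM in the D2 libraries, a log2 difference of 0.58 (SE 0.29, adjusted p = 0.183), so the libraries of a strain differed more in Sst than in Pvalb.

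Calb2 in CR-CR was higher in both D2 libraries than in both B6 libraries, at a log2 difference of 0.61 (SE 0.42, adjusted p = 0.527, edgeR), and was not called. The summed Cajal-Retzius markers went the other way. Of them, Trp73 was lower by a log2 difference of -1.48 (adjusted p = 0.0214, edgeR) and Ndnf by -1.27 (adjusted p = 0.0419). Reln and Lhx1, the others of that list, are not given singly, so a fall of each marker is not shown. The summed markers of immature granule cells, some of which carry calretinin, were 364 and 425 CPM in B6 and 344 and 1084 CPM in D2. The part of both marker sets in the Calb2 values was not tested. In Exc-CA3 and NN-OPC the log2 differences of Calb2 were -0.30 (SE 0.23, adjusted p = 0.355) and -0.50 (SE 0.44, adjusted p = 0.542).

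The other Calb1 differences lay between -0.70 and 0.59. The lowest was in astrocytes (NN-Astro), where the B6 libraries read 8.36 and 11.1 CPM and the D2 libraries 5.34 and 5.86 CPM (log2 difference -0.70, SE 0.32, adjusted p = 0.110, edgeR). The highest of those not called was in Exc-Cdh12, at 13.3 and 27.5 CPM in B6 and 32.0 and 38.6 CPM in D2 (0.59, SE 0.34, adjusted p = 0.388). In Exc-CA1-Galntl6 it was -0.23 (SE 0.13, adjusted p = 0.213). Without B6 library 3 that difference reached an adjusted p of 0.00734 and without D2 library 3 one of 0.0267, so 1 library decides on which side of the threshold it falls.

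**Figure D3:**
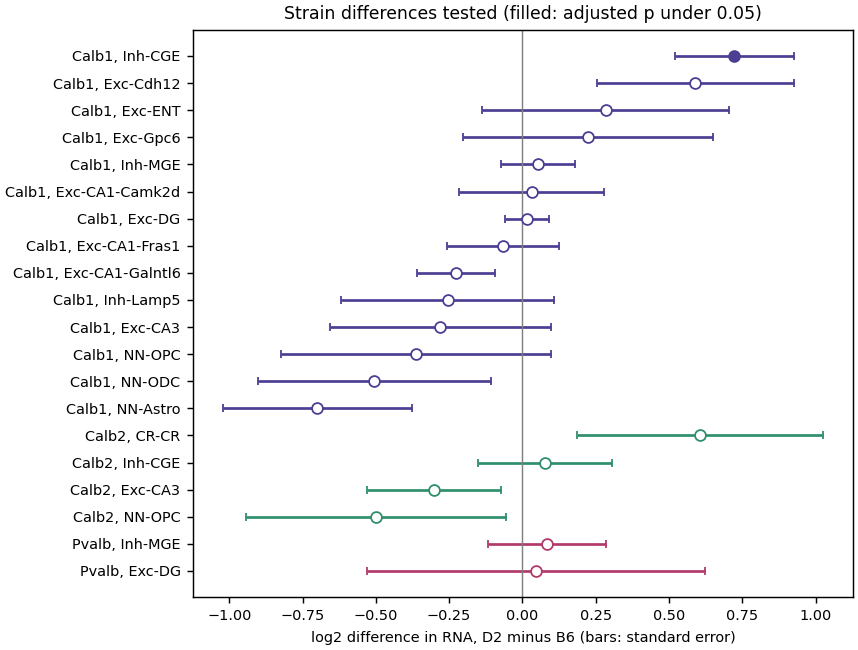
Log2 difference in RNA between D2 and B6 (horizontal axis, bars are the standard error) for the 20 pairs of a gene and a cell type that passed the filter, with filled points at an adjusted p under 0.05 in edgeR. Calb1 in Inh-CGE, at 0.72, is the 1 filled point, and the values for Calb1 in Exc-DG and Pvalb in Inh-MGE are near 0.

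Whether the strain difference of a gene varied between cell types was tested in 1 fit over all cell types, with the library as a term. The adjusted p over all 17 cell types was 0.0541 for Calb1, 0.286 for Pvalb and 0.343 for Calb2 (edgeR), while 14.6% of 21050 symbols were called in this test. Calb1 was called when symbols with at least 10 counts were all kept (adjusted p = 0.0081, edgeR). It was not called with another scaling (0.0609), with only symbols counted in both strains (0.0679) or with same-numbered libraries as a block (0.0591). Leaving out 1 library at a time moved it to either side of the threshold. In 7 pairs of related cell types, 0 of the 21 differences of the 3 genes were called by edgeR, with 0.715% called among all symbols and pairs, and 1 of the 21 had an unadjusted p under 0.05. That was Calb1 in Inh-MGE against Inh-CGE, with a difference of -0.67 (SE 0.24, adjusted p = 0.617). DESeq2 was not run on this comparison.

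A list of 36 further EF-hand genes, sensors and buffers, gave the setting for these values. In Exc-DG 33 of them were tested, of which 3 rose and 7 fell in D2, and the median log2 difference was 0.05 for the list and 0.06 for all symbols. In Inh-MGE 2 of 26 rose and 3 fell, in Inh-CGE 1 of 25 rose and 2 fell (0 called when either D2 library was left out, as for all symbols), and in CR-CR 0 of 15 were called by edgeR. These shares, 30.3%, 19.2% and 12% in the first 3 cell types, were near the shares of all symbols called there, 36.0%, 21.0% and 15.1%. In separate fits with only symbols counted in both strains, the shares of all symbols were 25.6%, 11.8% and 8.13%. The shares of the list in those fits are not given, so these values are not set against 30.3%, 19.2% and 12%. In other cell types the list departed further, in both directions. It was at 32.0% against 16.2% of all symbols in NN-OPC and at 4.17% against 8.44% in Exc-Cdh12.

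The called members of that list with the largest differences are given for Exc-DG and Inh-MGE, where Calb1 and Pvalb were highest. Necab3, a neuronal EF-hand protein, rose by 1.85 in Exc-DG (SE 0.12, adjusted p = 1.53e-08, edgeR), from 12.6 and 13.5 CPM in B6 to 44.3 and 51.9 CPM in D2. It rose in 11 of the 13 cell types in which it was tested. S100a16 and S100a13, of the S100 family, fell by 1.17 (adjusted p = 0.0334) and 1.08 (adjusted p = 0.031) in Exc-DG, both at levels under 3 CPM. Each was tested in 6 cell types, of which it rose in 1 and fell in 1. In Inh-MGE, Ncald, the gene of the calcium sensor neurocalcin delta, fell by 1.45 (SE 0.11, adjusted p = 7.22e-08), from 259 and 257 CPM in B6 to 103 and 90.1 CPM in D2. Ncald fell in 14 of 16 cell types. Kcnip3 and Kcnip4, whose proteins bind potassium channels, fell by 1.60 (adjusted p = 0.000837) and 0.99 (adjusted p = 5.16e-06) in Inh-MGE. Kcnip3 fell in 10 of 17 cell types and rose in 1, and Kcnip4 fell in 12 of 17 and rose in 0. The counts of cell types for these genes were taken after their values in Exc-DG and Inh-MGE were seen. The share of all symbols called in as many cell types was not computed.

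The snATAC-seq table gave the accessibility of the same genes in 15 cell types. It has no Cajal-Retzius and no NN-VLMC columns. Its cell types were named by linking the nuclei to the snRNA-seq data, so a likeness between both assays is not independent of that step. The table lists 6 peaks for Calb1 (chr4:15881264-15908064, plus strand, GRCm38), 8 for Calb2 (chr8:110137502-110168210, minus strand) and 4 for Pvalb (chr15:78191114-78206400, minus strand), counting the gene and 2000 bp upstream, with peak positions as the table gives them. All 3 genes are protein-coding in GENCODE vM21. Summed over its peaks, Pvalb was most accessible in Inh-MGE, at 34.4 ± 3.17 CPM of the ATAC counts (SD, n = 4 libraries), with NN-Astro next at 17.9 ± 12.1 CPM, where 1 library at 35.0 CPM from 17 counts overlapped Inh-MGE, and every excitatory type at 3.38 to 8.29 CPM. Calb1 was at 43.4 ± 1.33 CPM in Exc-CA1-Galntl6 and 42.1 ± 2.16 CPM in Exc-DG, whose ranges overlapped, and at 27.7 ± 3.17 CPM in Inh-MGE. Calb2 was at 30.2 ± 13.4 CPM in NN-OPC, 27.8 ± 4.13 CPM in Inh-CGE and 27.7 ± 1.39 CPM in Exc-CA3, and these 3 overlapped. NN-Astro, at 24.9 ± 6.40 CPM, overlapped each of them. The NN-OPC value rests on 13 and 4 counts in B6 and 11 and 13 in D2, from 14 to 32 nuclei in a library. Over the 15 cell types the correlation of RNA with accessibility, both on the scale log2(CPM + 1), was 0.808 for Pvalb, 0.813 for Calb1 and 0.619 for Calb2, given as a description.

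**Figure D4:**
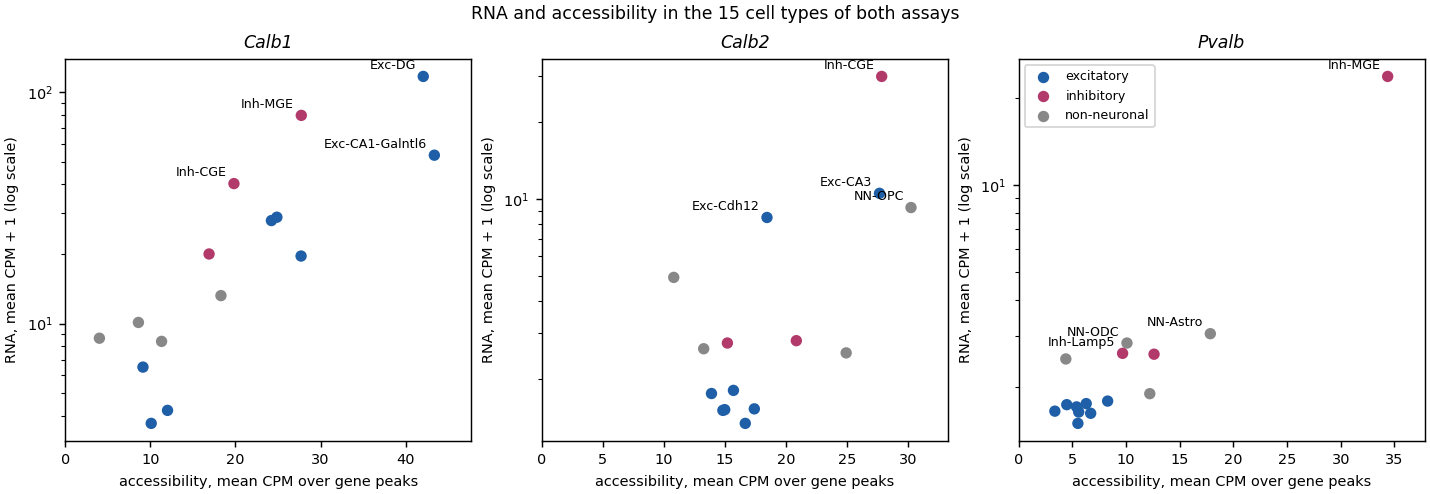
Mean RNA level (vertical axes, CPM + 1, log scale) against mean accessibility summed over the peaks of the gene (horizontal axes, CPM) in the 15 cell types of both assays, with excitatory types in blue, inhibitory in red and non-neuronal in grey. Inh-MGE stands apart on both axes for Pvalb, at 22.7 CPM of RNA and 34.4 CPM of accessibility, and Calb1 spreads over both axes with Exc-DG and Exc-CA1-Galntl6 at the upper end.

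The Pvalb peaks did not include the first base of the gene. The longer annotated transcript begins at base 78206400, and no peak spans it. The second peak (chr15:78203620-78204678) spans the start of a shorter transcript at base 78204237 and read 18.1 and 16.8 CPM in the B6 libraries of Inh-MGE and 12.4 and 21.2 CPM in the D2 libraries. In the excitatory types the mean of this peak was 1.44 to 2.73 CPM, in Inh-CGE 7.54 CPM and in NN-OPC 10.1 CPM. Peak 4, centred 10792 bp into the gene and in an intron, stood at 11.1 ± 0.58 CPM in Inh-MGE and at most 4.43 CPM in the other cell types. The 250 bases before each start are shown because they differ in CpG content and only the second lies in open chromatin of these tables. They are RefSeq promoter sequences of GRCm38.p6 on the minus strand, 5′ to 3′, with every CpG in capitals.
Pvalb before the upstream start, chr15:78206401-78206650: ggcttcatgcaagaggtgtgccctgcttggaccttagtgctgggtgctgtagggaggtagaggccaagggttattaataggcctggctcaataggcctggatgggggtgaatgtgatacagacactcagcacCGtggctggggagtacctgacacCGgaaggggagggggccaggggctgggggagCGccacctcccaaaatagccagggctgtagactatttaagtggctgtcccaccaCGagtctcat
Pvalb before the downstream start, chr15:78204238-78204487: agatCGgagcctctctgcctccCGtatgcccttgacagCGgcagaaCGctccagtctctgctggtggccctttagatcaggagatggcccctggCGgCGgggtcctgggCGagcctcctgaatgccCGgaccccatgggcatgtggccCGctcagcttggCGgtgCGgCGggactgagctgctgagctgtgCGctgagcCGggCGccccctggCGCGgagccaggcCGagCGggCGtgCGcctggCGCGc

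The stretch before the upstream start had 4 CpG dinucleotides and 58.4% G + C, and the stretch before the downstream start had 23 and 71.6%. Of 32851 promoters of this length, 37.8% had fewer CpG than the first and 86.7% fewer than the second, with a median of 6. Both strands were searched for TATAAA, which 12.4% of these promoters hold, CCAAT (33.8%), GGGCGG (32.7%) and the E-box CANNTG (66.2%). Neither stretch held the first 3 motifs, and the E-box occurred once, before the downstream start. The promoter table has no entry for Calb1 or Calb2.

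The Calb1 peaks separated the cell types by position. The first peak spans the gene start and led in Exc-DG, at 34.1 and 34.5 CPM in B6 and 35.3 and 38.1 CPM in D2, with Exc-CA1-Galntl6 at 23.7 ± 0.68 CPM, Inh-MGE at 21.4 ± 3.36 CPM and Exc-CA3 at 6.57 ± 0.89 CPM. Peak 4 (chr4:15894352-15896074), centred 13949 bp into the gene and holding an exon beside its centre, had another order. It read 14.5 and 17.4 CPM in B6 and 17.1 and 16.5 CPM in D2 in Exc-CA1-Galntl6, 9.33 ± 1.32 CPM in Exc-CA1-Fras1 and 4.44 ± 0.65 CPM in Exc-CA1-Camk2d, without overlap between the 3. Exc-DG, the cell type with the most Calb1 RNA, was at 2.60 ± 0.43 CPM and Inh-MGE at 3.27 ± 0.34 CPM. Within CA1 the order of this peak was not the order of the RNA, as Exc-CA1-Camk2d had 26.9 and Exc-CA1-Fras1 18.6 CPM of Calb1 RNA.

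For Calb2 the peak at the gene start was highest in NN-Astro and NN-OPC, at 19.98 ± 5.21 and 18.8 ± 10.8 CPM from 46 and 26 counts, and then in Inh-CGE at 13.7 ± 3.42 CPM. Astrocytes had 1.52 CPM of Calb2 RNA. Peak 3 (chr8:110155353-110156062), centred 12503 bp into the gene in an intron, was highest in Exc-CA3, at 6.03 and 5.64 CPM in B6 and 6.58 and 6.16 CPM in D2, and next in Exc-DG at 5.03 ± 0.27 CPM, and peak 8, 27838 bp in, was also highest in Exc-CA3 at 5.53 ± 0.23 CPM. The central 300 bases of Calb1 peak 4 and of Calb2 peak 3 hold no exon and are shown because these peaks part the excitatory types in an order that the peaks at the gene starts do not. They are the GRCm38.p6 reference of C57BL/6J, 5′ to 3′ on the strand of the gene, with the E-box CANNTG in capitals, the motif that neuronal basic helix-loop-helix factors bind.
Calb1 peak 4, plus strand, chr4:15895064-15895363: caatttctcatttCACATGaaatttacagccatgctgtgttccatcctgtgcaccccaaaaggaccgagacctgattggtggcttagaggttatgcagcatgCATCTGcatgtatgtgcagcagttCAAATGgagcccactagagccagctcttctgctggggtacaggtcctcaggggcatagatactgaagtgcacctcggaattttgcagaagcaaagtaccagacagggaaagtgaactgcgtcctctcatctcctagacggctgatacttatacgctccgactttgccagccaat
Calb2 peak 3, minus strand, chr8:110155558-110155857: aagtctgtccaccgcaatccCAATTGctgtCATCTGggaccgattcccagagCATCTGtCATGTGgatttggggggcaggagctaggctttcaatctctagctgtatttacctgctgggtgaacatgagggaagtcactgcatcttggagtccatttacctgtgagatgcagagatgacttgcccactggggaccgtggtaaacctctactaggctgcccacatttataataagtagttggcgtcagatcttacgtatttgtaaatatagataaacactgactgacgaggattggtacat

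The Calb1 window held 3 E-boxes and the Calb2 window 4, where the median over the central 300 bases of 300770 peaks was 2 and 85.3% held at least 1. Each held 2 CCAAT (34.7% of peaks hold 1 or more), the Calb2 window held 1 TATAAA (17.1%), and GGGCGG was in neither (7.65%). These matches are descriptions of the letters.

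**Figure D5:**
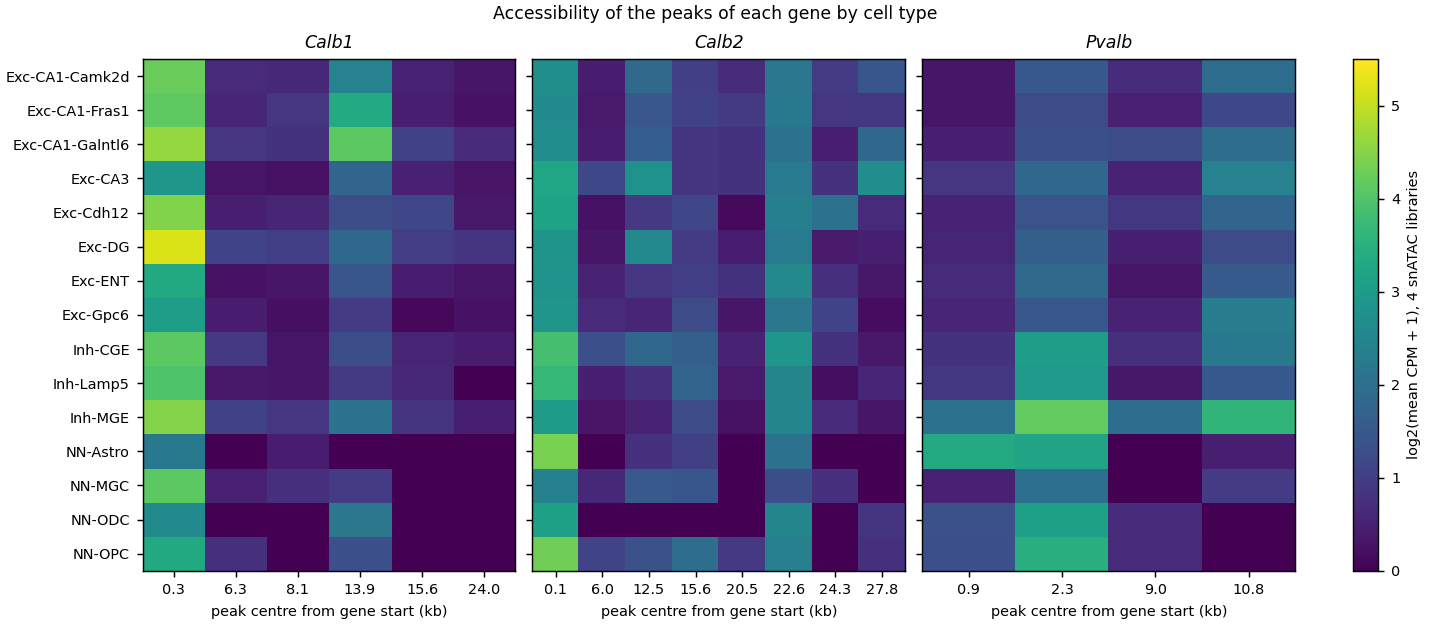
Mean accessibility of each peak of Calb1, Calb2 and Pvalb over 4 snATAC-seq libraries, as log2(CPM + 1) in colour, by cell type (rows) and by the distance of the peak centre from the gene start in kb (columns). Calb1 peak 4, 13949 bp from the start, is brightest in the CA1 clusters while the peak at the start is brightest in Exc-DG, and the second Pvalb peak, 2251 bp from the start, is brightest in Inh-MGE.

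Between the strains, 35 pairs of a gene and a cell type passed the filter in the snATAC-seq fits, 11 each for Pvalb and Calb1 and 13 for Calb2. Of these, 0 were called by edgeR, against 4.40% of all genes by edgeR in the same 13 cell types. DESeq2 called 0 as well, and it called fewer of all genes. In Exc-DG it called 544 higher and 655 lower of 32805 genes, and in Inh-CGE 21 higher and 31 lower of 31394. At an unadjusted p under 0.05 there were 5 of the 35 in edgeR. Among all genes edgeR gave 7182 of 31579 in Exc-DG and 4889 of 30021 in Exc-CA1-Camk2d at that threshold. It gave 1944 of 24711 in Inh-CGE and 693 of 12961 in NN-OPC. The share of 5 in 35 lay within the spread of these shares. The smallest adjusted p was 0.0951, for Pvalb in Exc-CA1-Camk2d, at a log2 difference of -0.67 (SE 0.24). For Calb1 in Inh-CGE, where the RNA differed, accessibility was 0.32 higher on the log2 scale (SE 0.21, adjusted p = 0.788), and the gene-start peak read 16.4 and 11.7 CPM in B6 and 16.6 and 20.8 CPM in D2. Pvalb in Inh-MGE was at -0.03 (SE 0.11, adjusted p = 0.959) and Calb1 in Exc-DG at 0.08 (SE 0.06, adjusted p = 0.497).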

How the data were processed

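Single-nucleus RNA and ATAC libraries of the ventral hippocampus of B6 and D2 mice were analysed, 2 per strain and assay, placed in strains by the labels and column names. The columns number the libraries 2 and 3 where the labels number replicates 1 and 2, so which sample of its strain a column is stays unknown, and no value depends on it. The deposited tables hold raw counts, which the authors made with Cell Ranger 6.0.2 (RNA, introns retained) or Cell Ranger ATAC 2.0.0, against mm10 for B6 and mm10 carrying D2 variants for D2, and summed over the nuclei of each cell type after Seurat 4.0.5 clustering. The authors had removed likely doublets in both assays with DoubletFinder. The release of the gene models is not given in the sources used here. A low transcript count can therefore reflect depth, and variant handling could touch either strain. Methylation samples of the series, 16 of 24, were not analysed here.

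From these counts, each cell type was fitted with edgeR 4.0.16 (R 4.3.3, TMM, filterByExpr, quasi-likelihood, Benjamini-Hochberg over all symbols, threshold 0.05). Peak counts were summed over each gene and 2000 bp upstream (GENCODE vM21). Column totals were 139713 to 11352265 (RNA) and 278059 to 27815541 (ATAC), and intervals cover counting error only. DESeq2 1.42.0, other scaling, filters, symbols, pairing and left-out libraries were alternatives. On simulated counts with 200 changed symbols, edgeR recovered 97.5% in Exc-DG, 94% in Inh-MGE and 63.5% in CR-CR. Of the smaller planted changes it recovered 94.1%, 86.5% and 38.6%. Those were still larger than every RNA difference of the 3 genes in the main edgeR fits. Changes were planted above a floor on counts that Calb2 in CR-CR did not reach, with the same spread for every symbol. Inh-CGE was not simulated for RNA, so these rates do not tell how often differences of the size seen here would be called. Named genes were the 3 members, the 5 symbols most correlated with each, and the 3 called EF-hand genes with the largest change in the cell type highest for each member. The members and lists were chosen with earlier results of these data known.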

Additional observations from a re-analysis of the deposited data

Results flagged for a closer look

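Among the 14 cell types in which Calb1 was tested, the CPM of D2 and B6 did not overlap in 5, with D2 the higher strain in 3 and the lower in 2. Over all symbols tested 58.8% did not overlap. The log2 difference was 0.72 in Inh-CGE, 0.59 in Exc-Cdh12 and 0.22 in Exc-Gpc6, and it was -0.70 in NN-Astro and -0.26 in Inh-Lamp5. The differences between these cell types were not tested in pairs, and the test over all 17 cell types gave an adjusted p of 0.0541 (edgeR).

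Calb2 was likewise higher in both D2 libraries in CR-CR, at 0.61, and lower in both in NN-OPC, at -0.50. This difference was not tested as a pair, and the test over all cell types gave an adjusted p of 0.343 (edgeR).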

How the results depend on the processing

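The call of Calb1 in Inh-CGE held under 6 of 10 alternatives, with adjusted p from 0.00474 to 0.325. DESeq2 gave a log2 difference of 0.72 (adjusted p = 0.304) and 0 cell types with Calb1 called higher, and leaving out 1 library gave 0.53 to 0.91. The number of cell types with Calb1 called was then 0 to 1 in either direction, and the adjusted p of its variation between cell types was 0.0185 to 0.348, against 0.0081 with symbols of at least 10 counts. Calb1 in Exc-DG turned to -0.0199 in 1 fit over all cell types, and Calb2 accessibility in Inh-CGE to -0.30 with only peaks within 1000 bp of the start. CR-CR ranked 2 for Calb2 per 100 nuclei. The cause of these changes was not tested.

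Leaving out 1 library also turned small differences. The Calb1 RNA differences ranged from -0.41 to 0.39 in Exc-CA1-Camk2d, -0.56 to 0.0139 in Exc-CA3, -0.0384 to 0.0628 in Exc-DG, -0.19 to 1.00 in Exc-ENT and -0.063 to 0.18 in Inh-MGE. Pvalb ranged from -0.96 to 0.95 in Exc-DG and -0.22 to 0.29 in Inh-MGE, and Calb2 from -0.14 to 0.28 in Inh-CGE. In accessibility the ranges were -0.0179 to 0.14 for Calb1 in Exc-DG, -0.20 to 0.33 for Calb2 in Inh-CGE and -0.20 to 0.14 for Pvalb in Inh-MGE.

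Of the EF-hand list, DESeq2 called 6 in Exc-DG and 3 in Inh-MGE, against 10 and 5 in edgeR, while the share of all symbols called went from 36.0% to 20.1% and from 21.0% to 11.4%. Without 1 library the count was 0 to 4 in Inh-CGE, at 0 without either D2 library, where 0 of all symbols were called by edgeR (2375 and 2049 at an unadjusted p under 0.05), and 0 to 1 in CR-CR, where 2.09% to 5.82% of all symbols were. The alternatives for this list were chosen after seeing the data. With symbols counted in both strains, Exc-DG calls split into 1872 higher and 2195 lower, against 3934 and 2448.

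The library numbers did not pair the libraries: deviations of same-numbered libraries correlated at -0.114 to 0.0585 in RNA and -0.0882 to 0.0341 in ATAC. With the replicate block 1 pair of a gene and a cell type was called, Calb1 in Inh-CGE (0.72, adjusted p = 0.00474), and with the crossed block, added after seeing the data, 1 was.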
